A study of Mus musculus with 10 samples.

Results

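The genes of the proteasome, the protease complex that degrades ubiquitin-tagged proteins, were followed in primary mouse hepatocytes. Members were the genes whose symbol was Psma, Psmb, Psmc, Psmd, Psme, Psmf or Psmg followed by a number, and the assembly factor gene Pomp, with pseudogenes left out. This gave 49 genes of the 18055 listed in any library. The symbols Psmc3ip and Psme3ip1, which name interacting proteins, and Psme2b were left out.

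Hepatocytes of C57BL/6 mice, isolated by collagenase perfusion, plated in DMEM with 10% FBS and then kept overnight without serum before treatment, were sequenced in 5 groups of 2 libraries each. Cells of the PA group received 200 μM palmitate, a saturated free fatty acid (FFA), for 24 h, and cells of the LA group received 12 μM linoleate, a polyunsaturated FFA, for 24 h. In the PA+NTP and LA+NTP groups the same FFA was given after 1 h with NTP (Neurotropin, a non-protein extract of rabbit skin inflamed with vaccinia virus), and the fifth group was labelled Vehicle. The labels gave no group that received NTP without an FFA, and neither the age of the mice nor whether the 2 libraries of a group came from separate animals or cultures, so that p-values measured only the spread between these libraries. Expected counts summed to between 13142588 (PA replicate 1) and 60046937 (LA+NTP replicate 2) per library. The hepatocyte marker Alb was at 1929 to 2818 FPKM. Summed over 6 hepatocyte markers the level was 3273 to 3479 FPKM in Vehicle, 2293 to 2521 FPKM with PA, 3302 to 3359 FPKM with LA, 2776 to 3113 FPKM with PA+NTP and 3919 to 4165 FPKM with LA+NTP. The sum was thus lowest with PA, highest with LA+NTP and higher in each NTP group than with its FFA alone. The part of these differences in the proteasome changes was not tested. Most of the sum was Alb. Among the 6 markers only Cps1, a scarce one, was not higher with PA+NTP (2.83 and 1.52 FPKM) than with PA (2.99 and 2.61 FPKM).

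The 26S proteasome is a barrel closed by caps. The barrel, the 20S core, stacks rings of alpha subunits (Psma genes), which form its gate, around rings of beta subunits (Psmb genes), of which Psmb5, Psmb6 and Psmb7 encode the catalytic ones. The 19S cap has a base with a ring of ATPases (Psmc genes), which unfold the substrate, and a lid (several Psmd genes), which holds Psmd14, the enzyme that removes ubiquitin. In cells exposed to interferon, Psmb8, Psmb9 and Psmb10 take the places of Psmb5, Psmb6 and Psmb7, giving the immunoproteasome, which favours peptides that fit MHC class I. Other caps are the PA28 activators (Psme1, Psme2 and Psme3) and PA200 (Psme4), and Psmf1 encodes an inhibitor. Assembly is guided by chaperones, among them Pomp, Psmg1 to Psmg4, Psmd5, Psmd9 and Psmd10. In liver the proteasome is known for its part in protein turnover and quality control.

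Promoters of the members with the largest changes are given first, from 250 bases before to 50 bases after the RefSeq start of the gene on GRCm38. Psmc6 and Psma1 had the largest increases with an FFA alone among the 49 genes, Psmg4 had a decrease of at least 1.5-fold with both FFAs, and Psmb6 is the catalytic subunit whose level moved opposite to that of Psmb7. Capitals mark matches, on either strand, to 4 motifs: the antioxidant response element core TGACNNNGC, the CCAAT box, the interferon-stimulated response element core GAAANNGAA and the GC box GGGCGG. No matches of different motifs overlapped in these windows.
Psmc6, chr14:45329574-45329873, plus strand: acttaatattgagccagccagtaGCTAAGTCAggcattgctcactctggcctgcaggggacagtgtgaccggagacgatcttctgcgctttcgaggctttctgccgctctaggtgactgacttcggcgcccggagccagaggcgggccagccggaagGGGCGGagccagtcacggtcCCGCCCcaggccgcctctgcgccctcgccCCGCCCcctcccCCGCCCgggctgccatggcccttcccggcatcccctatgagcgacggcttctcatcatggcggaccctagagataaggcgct
Psma1, chr7:114276067-114276366, minus strand: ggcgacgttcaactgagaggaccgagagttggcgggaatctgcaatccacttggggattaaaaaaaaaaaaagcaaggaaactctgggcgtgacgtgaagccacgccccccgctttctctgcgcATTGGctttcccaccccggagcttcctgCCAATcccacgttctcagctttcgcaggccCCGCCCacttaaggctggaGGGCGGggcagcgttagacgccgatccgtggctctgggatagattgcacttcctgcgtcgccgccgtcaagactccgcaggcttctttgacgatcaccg
Psmg4, chr13:34162714-34163013, plus strand: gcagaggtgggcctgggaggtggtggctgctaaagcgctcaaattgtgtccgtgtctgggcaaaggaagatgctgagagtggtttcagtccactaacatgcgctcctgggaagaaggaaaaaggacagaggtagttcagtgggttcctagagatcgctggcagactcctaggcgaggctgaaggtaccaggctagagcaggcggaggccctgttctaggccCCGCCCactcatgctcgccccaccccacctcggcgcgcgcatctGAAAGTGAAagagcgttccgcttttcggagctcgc
Psmb6, chr11:70525107-70525406, plus strand: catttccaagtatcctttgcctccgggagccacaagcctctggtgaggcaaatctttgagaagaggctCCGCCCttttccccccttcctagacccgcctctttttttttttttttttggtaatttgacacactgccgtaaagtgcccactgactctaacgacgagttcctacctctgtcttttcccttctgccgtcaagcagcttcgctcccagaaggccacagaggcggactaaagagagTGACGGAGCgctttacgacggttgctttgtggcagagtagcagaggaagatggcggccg

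Of the 49 genes, 41 had at least 1 such window, among 17492 genes with one, and a gene was counted where any of its windows held a match. The antioxidant response element core, the kind of sequence bound by NRF1 and NRF2, was found for 6 of the 41 genes (14.6%, against 14.8% of all genes with a window). These were Psmb5, Psmb6, Psmc6, Psmd9, Psmd12 and Psme4. The CCAAT box was found for 14 (34.1%, against 42.3%), the GC box for 24 (58.5%, against 49.2%), and the interferon element core for 8 (19.5%, against 9.43%). The 8 genes with the interferon element core were Psmb3, Psmb4, Psmc2, Psmd4, Psmd9, Psme1, Psmg4 and Pomp, and the windows of Psmb8, Psmb9 and Psmb10 held no match to these letters.

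All 49 genes were listed in all 10 libraries, and all 49 passed the filter on low counts that left 14097 genes to test. Their levels are given in FPKM, which is scaled for transcript length. The mean over the 10 libraries had a median of 97.8 FPKM among the 49 genes, against 3.69 FPKM over all listed genes, and together the members took between 0.639% and 0.756% of a library's expected counts. Psmd8, a lid subunit, stood apart with a mean of 663 FPKM, and its values of 568 to 754 FPKM in single libraries were each above those of every other member. The next was Psma4 of the alpha ring at 192 FPKM. In the other classes the highest were Psme1 (172 FPKM), Psmb7 (157 FPKM), Pomp (154 FPKM), Psmc1 (136 FPKM), Psmd4 (108 FPKM) and Psmb8 (30.9 FPKM).

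The lowest members were those known from other tissues. Psmb11, the thymus-specific beta subunit, had a mean of 0.884 FPKM, with 0.47 to 1.23 FPKM in single libraries, and Psma8, the testis-specific alpha subunit, had a mean of 1.74 FPKM, with 1.17 to 2.28 FPKM. The lowest of the other classes were Psmd9 (9.19 FPKM), Psmf1 (11.6 FPKM), Psmd3 (47.8 FPKM), Psmb2 (86.5 FPKM), Psmd1 (88.0 FPKM) and Psmc3 (97.8 FPKM). The 14 genes of the standard core, Psma1 to Psma7 and Psmb1 to Psmb7, lay close together: the highest was between 2.07 and 2.52 times the lowest in the 6 libraries of the Vehicle, PA+NTP and LA+NTP groups. In the 4 libraries with an FFA alone this ratio was 2.54 to 2.95, which is just clear of the other 6. The ratio was not corrected for the trend with GC content described below, and the part of that trend in it was not tested.

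**Figure D1:**
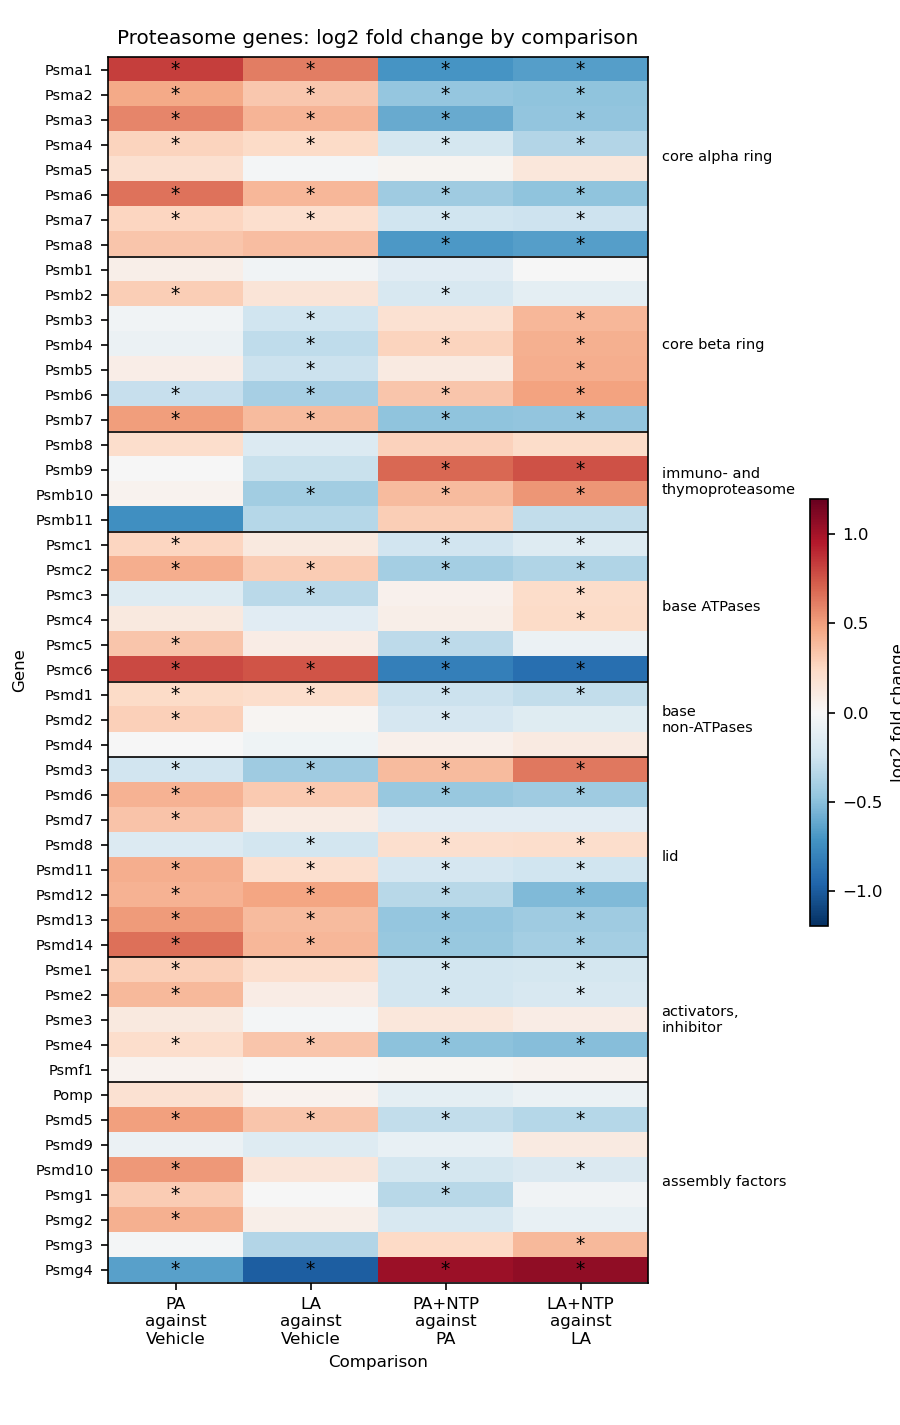
Log2 fold change of the 49 proteasome genes (rows, grouped by class) in the 4 comparisons (columns), red for higher and blue for lower in the group named first, from edgeR on all 10 libraries. An asterisk marks a Benjamini-Hochberg adjusted p under 0.05 over all genes tested at any fold. Most alpha ring and lid genes are red in the 2 left columns, and Psmg4 is the darkest blue gene with LA.

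Changes were tested with edgeR's quasi-likelihood F test over all genes, with Benjamini-Hochberg adjustment, and a gene was called at an adjusted p under 0.05 and a fold of at least 1.5. Because most changes of proteasome genes were smaller, counts at an adjusted p under 0.05 at any fold are given too, and "rose" and "fell" refer to this adjusted p. PA and LA are each compared with the same Vehicle libraries, and each NTP group with its own FFA libraries, so that the comparisons share libraries.

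With PA, the proteasome genes moved mostly up. At any fold, 27 of 49 rose, where 23.5% of all genes tested did, and 3 of 49 fell, where 22.0% did. The median log2 fold change was 0.26 over the 49 genes and -0.01 over all genes tested. With the threshold of 1.5-fold, 4 genes were called higher (background 6.0%), Psma1, Psmc6, Psma6 and Psmd14, and 1 was called lower (background 8.92%), Psmg4. With LA the members split: 17 of 49 rose (background 20.8%) and 9 fell (background 20.5%), with a median of 0.09 against -0.01 over all genes. Past 1.5-fold with LA were Psma1 and Psmc6 among the higher (background 3.53%) and Psmg4 among the lower (background 7.11%).

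With NTP before the FFA, more members were lower than higher. In PA+NTP against PA, 26 of 49 fell (background 23.0%) and 7 rose (background 21.7%), with a median of -0.20 against 0.01 over all genes. In LA+NTP against LA, 22 of 49 fell (background 25.6%) and 12 rose (background 25.9%), with a median of -0.14 against 0.01. Past 1.5-fold, 4 genes fell with PA+NTP (Psma1, Psma3, Psma8 and Psmc6, background 5.11%) and 3 with LA+NTP (Psma1, Psma8 and Psmc6, background 7.57%). Averaged over both FFAs, 27 fell with NTP (background 29.8%) and 13 rose (background 30.1%). Those that rose past 1.5-fold were Psmg4 and Psmb9 with PA+NTP (background 8.74%), and Psmg4, Psmb9 and Psmd3 with LA+NTP (background 11.7%).

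These changes went with the GC content of the transcripts. In all genes tested, log2 fold change and GC content had a Spearman rho of -0.52 with PA and -0.64 with LA against Vehicle, and 0.57 and 0.68 for the 2 NTP comparisons. Over the 49 members, which range from 37.0% GC (Psmc6) to 58.3% GC (Psmd3), the same values were -0.72, -0.80, 0.77 and 0.82, as a description across genes that share the libraries. After a smooth trend on GC content was taken out of each library, 26 members rose (background at this setting 15.2%) and 1 fell (15.5%) with PA, and 9 rose (7.61%) and 2 fell (9.67%) with LA. In the NTP comparisons 2 rose (13.8%) and 17 fell (13.1%) under PA, and 5 rose (14.6%) and 13 fell (11.9%) under LA. The medians were then 0.23 with PA, 0.04 with LA, -0.11 for PA+NTP against PA and -0.06 for LA+NTP against LA. Whether the GC trend arose in the cells or in making the libraries was not tested, and values without the trend, called GC-corrected, are given beside the classes and genes below.

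**Figure D2:**
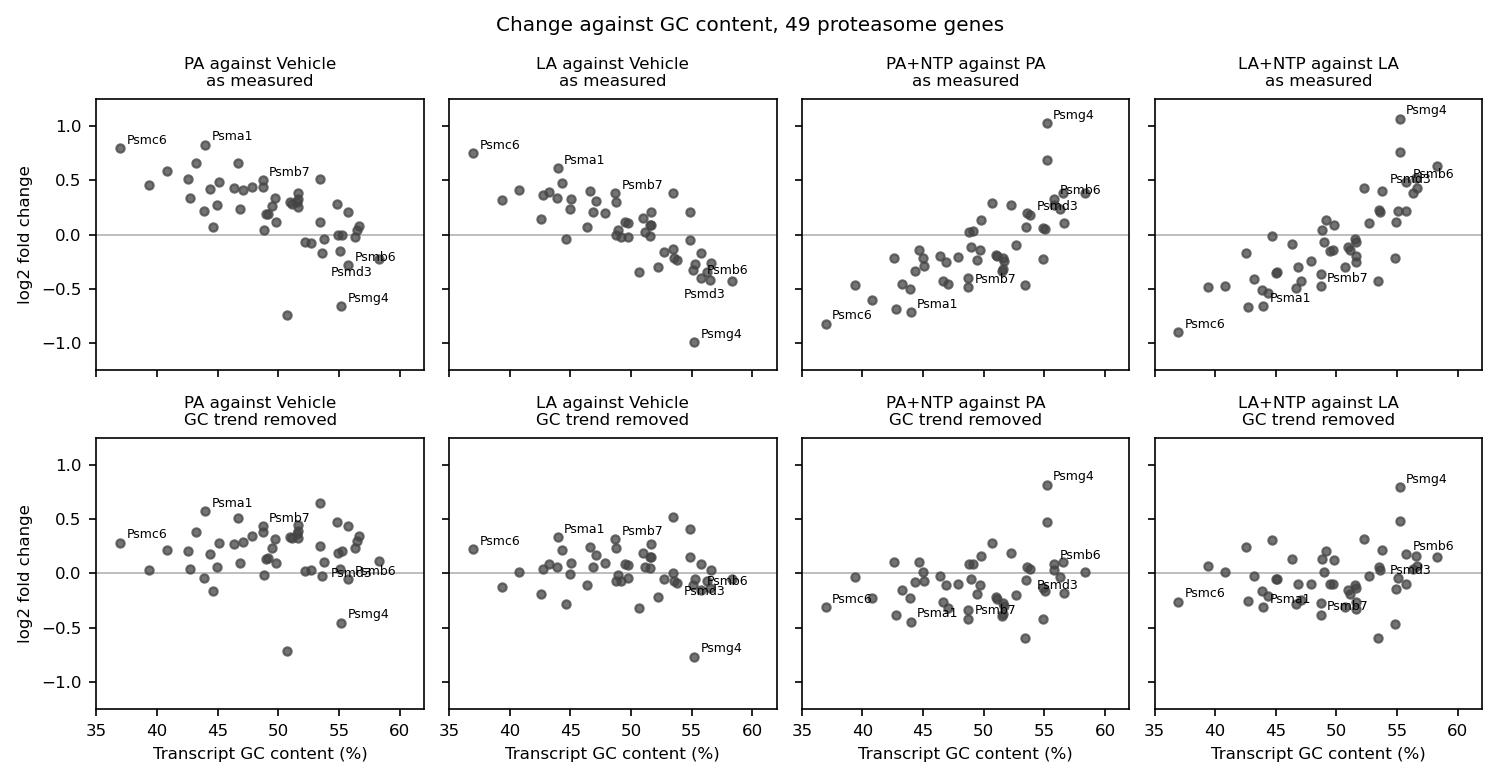
Log2 fold change (vertical axis) against the GC content of the transcripts in percent (horizontal axis) for the 49 proteasome genes, 1 point per gene, in the 4 comparisons, as measured (top) and after a GC trend was taken out of each library (bottom). In the top row the points run from Psmc6 at 37.0% GC to Psmd3 at 58.3% GC along a slope, and in the bottom row the slope is nearly level and Psmg4 still stands apart, while the lowest point in the panels of PA against Vehicle is Psmb11, which has few counts and did not pass the test.

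The classes differed in median GC content, which was 52.2% for the beta ring, 55.5% for the immunoproteasome and thymoproteasome genes and 50.1% for all genes tested. The alpha ring had the lowest of any class, 44.5%. Its genes that passed the test moved in 1 direction in each comparison. Of its 8 genes, 6 rose and none fell with PA (background 23.5% higher and 22.0% lower). With LA 6 rose and none fell (background 20.8% and 20.5%). In both NTP comparisons 7 fell and none rose (background for a fall 23.0% under PA and 25.6% under LA). After GC correction 4 rose with PA (background at this setting 15.2%) and 3 with LA (7.61%). With NTP 4 then fell under PA (13.1%) and 3 under LA (11.9%). The GC-corrected median log2 fold change of the ring was 0.18 with PA and 0.03 with LA. That was below the medians of the base ATPases (0.27 and 0.12) and of the lid (0.30 and 0.09). In counts scaled for library size and composition (CPM after TMM), 7 of the 8 alpha ring genes were higher in each of the 4 libraries with an FFA alone than in any of the other 6 libraries. The exception was Psma5. The summed level of the ring was 864 FPKM in both Vehicle libraries, 1155 and 1162 FPKM with PA, and 1031 and 1049 FPKM with LA. With NTP it was 894 and 963 FPKM under PA, and 814 and 828 FPKM under LA.

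Psma1 encodes a subunit of this ring. Its values were 88.8 and 86.3 FPKM in Vehicle, 148 and 155 FPKM with PA, and 135 and 124 FPKM with LA. With NTP they were 97.5 and 95.6 FPKM under PA and 86.5 and 82.5 FPKM under LA. The 4 libraries with an FFA alone were all above the other 6. The log2 fold change against Vehicle was 0.83 ± 0.06 (SE) with PA (edgeR adjusted p = 3.7e-07) and 0.61 ± 0.06 with LA (edgeR adjusted p = 5.83e-06). NTP lowered it by a log2 fold change of -0.71 ± 0.06 under PA and -0.66 ± 0.06 under LA. Without the GC trend these 4 values were 0.57, 0.34, -0.44 and -0.31, all with an adjusted p under 0.05. Without LA replicate 1 the change with LA was 0.55, under 1.5-fold.

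Against Vehicle, Psma6 and Psma3 had the next largest increases of the ring. Psma3 was at 117 ± 2.73 FPKM (SD, n = 2) in Vehicle, 171 ± 2.04 FPKM with PA and 151 ± 3.58 FPKM with LA. Its log2 fold change with PA, 0.584, lay just under the threshold of 1.5-fold (0.585), and its fall with PA+NTP, -0.60 ± 0.06, was -0.51 without PA+NTP replicate 1. Psma6 was at 127 ± 0.523 FPKM in Vehicle, 195 ± 6.92 FPKM with PA and 163 ± 5.85 FPKM with LA, and its GC-corrected changes of 0.51 and 0.24 both passed the test. The changes of Psma3 with LA, and of Psma2 and Psma4 with PA and with LA, were no longer past the test without the GC trend.

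Psma8 was lower with NTP by a log2 fold change of -0.69 ± 0.24 under PA (edgeR adjusted p = 0.0297) and -0.66 ± 0.23 under LA (edgeR adjusted p = 0.0244). Its expected counts were between 49 and 133 per library, a depth at which single libraries weigh heavily. Leaving out either PA library, or PA+NTP replicate 1, moved the change under PA out of the call, to an edgeR adjusted p of 0.0778 to 0.169, and under LA it was 0.115 without LA replicate 2 and 0.225 without LA+NTP replicate 2. With the GC trend removed, neither change passed the test.

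The beta ring did not move as one. Of its 7 genes, 2 rose (Psmb2 and Psmb7) and 1 fell (Psmb6) with PA, near the background of 23.5% higher and 22.0% lower for so few genes. With LA 1 rose (Psmb7) and 4 fell (Psmb3, Psmb4, Psmb5 and Psmb6), where 20.8% and 20.5% of all genes did. Its summed level was 872 and 873 FPKM in Vehicle, 909 and 911 FPKM with PA, and 776 and 820 FPKM with LA. With NTP 2 rose and 2 fell under PA (background 21.7% and 23.0%), and 4 rose and 1 fell under LA (background 25.9% and 25.6%). These counts differed after GC correction. With PA 3 then rose (Psmb2, Psmb5 and Psmb7) and none fell (background at this setting 15.2% and 15.5%). With LA Psmb7 rose and Psmb1 fell (-0.29), where 7.61% and 9.67% of all genes did. Psmb3, Psmb4, Psmb5 and Psmb6 did not pass the test with LA at this setting. The subunits of a ring are present in equal numbers, and the transcripts of its catalytic members Psmb6 and Psmb7 moved apart as measured. After GC correction only Psmb7 of these passed the test.

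Psmb7 encodes the subunit with trypsin-like activity. Its values were 140 FPKM in both Vehicle libraries, 190 and 197 FPKM with PA, 181 and 173 FPKM with LA, 136 and 152 FPKM with PA+NTP, and 131 FPKM in both LA+NTP libraries. All 4 libraries with an FFA alone were above the other 6. The log2 fold change was 0.50 ± 0.07 with PA, 0.38 ± 0.07 with LA, -0.49 ± 0.07 for PA+NTP against PA and -0.47 ± 0.07 for LA+NTP against LA, with edgeR adjusted p from 3.18e-05 to 0.00036. Without the GC trend these were 0.44, 0.31, -0.42 and -0.38, all past the test. Psmb7 overlaps an exon of Nek6 on the other strand, and whether the libraries kept strand is not given in the sources used here.

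Psmb6, the subunit with caspase-like activity, was at 133 and 127 FPKM in Vehicle, 105 and 104 FPKM with PA, and 98.4 and 92.3 FPKM with LA. With NTP it was at 134 and 140 FPKM under PA and 128 and 146 FPKM under LA. All 4 libraries with an FFA alone were below the other 6. The log2 fold change was -0.28 ± 0.07 with PA (edgeR adjusted p = 0.00576), -0.40 ± 0.07 with LA (edgeR adjusted p = 0.00053), 0.33 ± 0.07 for PA+NTP against PA and 0.49 ± 0.07 for LA+NTP against LA. Without the GC trend these were -0.05, -0.15, 0.09 and 0.17, and none passed the test. The ratio of Psmb7 to Psmb6 in FPKM, a measure chosen after the values were seen, was 0.90 to 1.1 in the 6 libraries of Vehicle and the NTP groups and 1.80 to 1.90 in the 4 libraries with an FFA alone. This ratio was not GC-corrected, and it sets Psmb7 at 48.7% GC against Psmb6 at 55.8% GC.

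Psmb5, the subunit with chymotrypsin-like activity, had no change past the test with PA (log2 fold change 0.08 ± 0.08, edgeR adjusted p = 0.42) and was lower with LA (-0.26 ± 0.08, edgeR adjusted p = 0.0147). Its counts are uncertain, since 71.7% of its 31-base words occur in other annotated transcripts, mostly of pseudogenes. The microRNA gene Mir686 lies in its exon on the same strand. Mir686 had expected counts of 122 and 101 in the LA libraries, 15.7 and 60.7 in PA, 3.19 and 0 in Vehicle, and 0 in all 4 NTP libraries, at most 4.52% of the counts of both genes together. Once the GC trend was removed, Psmb5 was at 0.35 with PA, which passed the test, and at 0.03 with LA, which did not.

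**Figure D3:**
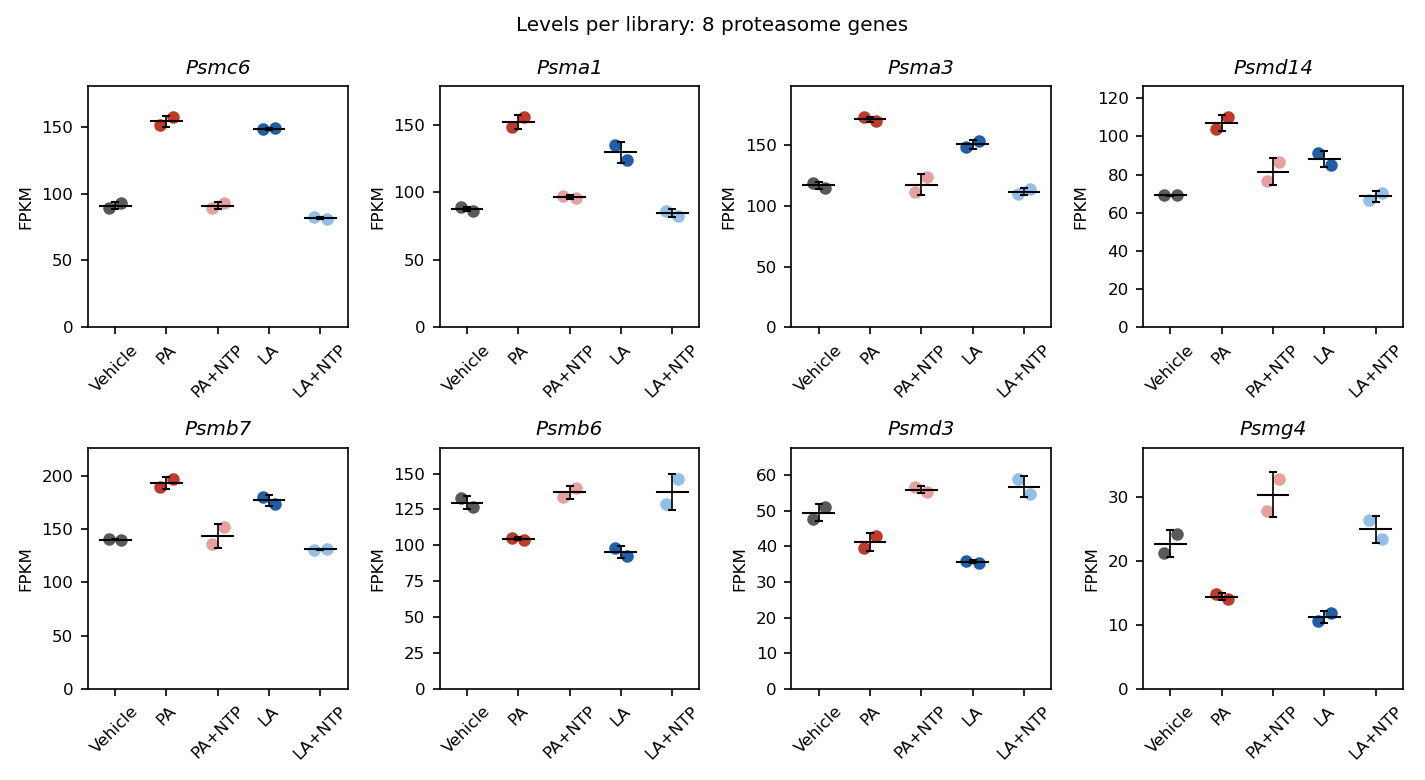
Level in FPKM (vertical axis, from 0) of 8 proteasome genes in each of the 10 libraries (points, 2 per group), with the group mean (line) and SD (bars). Psmc6, Psma1, Psma3 and Psmb7 are higher in all 4 libraries with an FFA alone than in the other 6, Psmb6, Psmd3 and Psmg4 are lower, and for Psmd14 one PA+NTP point at 86.4 FPKM is above one LA point at 85.2 FPKM.

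In the 19S base, the ATPases rose as a majority with PA: 4 of 6 rose and none fell (background 23.5% and 22.0%). With LA 2 rose and 1 fell (background 20.8% and 20.5%). After GC correction 5 rose with PA (background at this setting 15.2%) and 2 with LA (7.61%), and none fell. Psmc6, the subunit known as Rpt4, had the largest change. It was at 89.1 and 92.6 FPKM in Vehicle, 151 and 157 FPKM with PA, 148 and 149 FPKM with LA, 89.0 and 92.9 FPKM with PA+NTP, and 82.5 and 81.1 FPKM with LA+NTP. The 4 libraries with an FFA alone stood well above the other 6, which overlapped between Vehicle and PA+NTP. The log2 fold changes were 0.80 ± 0.06 with PA (edgeR adjusted p = 2.91e-07), 0.75 ± 0.06 with LA (edgeR adjusted p = 1e-06), -0.82 ± 0.06 for PA+NTP against PA and -0.90 ± 0.06 for LA+NTP against LA. Psmc6 has the lowest GC content of the members, and without the GC trend the changes were 0.28, 0.22, -0.31 and -0.26, each still past the test but under 1.5-fold.

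The other ATPases changed less. Psmc1, at 130 FPKM on average in Vehicle, rose by a log2 fold change of 0.26 ± 0.06 with PA, and Psmc2 by 0.44 with PA and 0.30 with LA. Psmc3, which has a higher GC content of 55.1%, was at -0.15 ± 0.07 with PA (edgeR adjusted p = 0.0651) and fell by 0.32 on the log2 scale with LA (edgeR adjusted p = 0.00114). Of the 3 base subunits that are not ATPases, Psmd1 rose with PA and with LA (0.23 and 0.21) and Psmd2 with PA (0.28). Psmd4, a ubiquitin receptor, was at -0.00 ± 0.06 with PA and -0.05 ± 0.06 with LA, and neither passed the test. GC-corrected, the changes of Psmc1 with PA (0.23), of Psmc2 with PA and LA (0.38 and 0.23) and of Psmd2 with PA (0.32) remained past the test. Those of Psmd1 (0.10 and 0.06) and of Psmc3 with LA (-0.11) did not pass it, and Psmd4 with PA, at 0.19, then did.

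The lid had 6 of 8 genes higher and 1 lower with PA (background 23.5% and 22.0%). With LA 5 were higher and 2 lower (background 20.8% and 20.5%). After GC correction 5 were higher with PA (background at this setting 15.2%) and 2 with LA (7.61%), and none was lower. Psmd14, its deubiquitinating enzyme, was at 69.0 and 69.4 FPKM in Vehicle, 104 and 110 FPKM with PA, 91.2 and 85.2 FPKM with LA, 76.7 and 86.4 FPKM with PA+NTP, and 66.6 and 70.6 FPKM with LA+NTP. One PA+NTP library thus came above one LA library. The log2 fold change was 0.66 ± 0.07 with PA (edgeR adjusted p = 7.71e-06) and 0.40 ± 0.07 with LA (edgeR adjusted p = 0.00056), and it was 0.38 and 0.09 without the GC trend, where the second did not pass the test. Psmd13, a lid subunit with 53.4% GC, rose by 0.51 with PA and 0.38 with LA, and by 0.65 and 0.52 without the GC trend. Its exon overlaps Sirt3 on the other strand.

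Psmd3 and Psmd8 moved the other way. Psmd3 was at 47.8 and 51.1 FPKM in Vehicle, 39.4 and 42.9 FPKM with PA, 36.0 and 35.3 FPKM with LA, 56.6 and 55.2 FPKM with PA+NTP, and 58.9 and 54.6 FPKM with LA+NTP. All libraries with an FFA alone were below the other 6. The log2 fold change was -0.23 ± 0.07 with PA, -0.43 ± 0.07 with LA and 0.63 ± 0.06 for LA+NTP against LA (edgeR adjusted p = 2.37e-06), which was 0.58 without LA+NTP replicate 1. The GC-corrected values were 0.12, -0.05 and 0.15, none past the test. Psmd8 was at 706 and 692 FPKM in Vehicle, 568 and 650 FPKM with PA and 590 and 577 FPKM with LA. Its log2 fold change was -0.17 ± 0.07 with PA (edgeR adjusted p = 0.0651) and -0.22 ± 0.07 with LA (edgeR adjusted p = 0.0216). After GC correction these were -0.03 and -0.07, and neither passed the test.

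Among the activators, Psme1 and Psme2, the subunits of the interferon-inducible PA28 cap, rose with PA by log2 fold changes of 0.28 ± 0.09 (edgeR adjusted p = 0.0149) and 0.39 ± 0.07 (edgeR adjusted p = 0.000655). With LA they were at 0.21 ± 0.09 and 0.09 ± 0.07, which did not pass the test, and both fell in both NTP comparisons. Psme1 was at 160 and 161 FPKM in Vehicle and 211 and 172 FPKM with PA, so that its PA libraries lay far apart. With that trend removed Psme1 was at 0.47 with PA and 0.41 with LA, both past the test. The GC-corrected change of Psme2 with PA was 0.45, also past the test. Psme2 shares 33.5% of its 31-base words with Psme2b and a pseudogene. Psme4 rose with PA and LA (0.21 and 0.34) and fell with NTP (-0.50 and -0.51). GC-corrected, it was at -0.05 with PA and 0.06 with LA, neither past the test, and at -0.22 and -0.16 with NTP, both past it. The nuclear activator Psme3 and the inhibitor Psmf1 passed the test in none of the 4 comparisons.

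The immunoproteasome subunits followed another order. Psmb9, the counterpart of Psmb6, was at 7.33 and 7.07 FPKM in Vehicle, 7.18 and 6.93 FPKM with PA, 5.88 and 5.65 FPKM with LA, 12.4 and 11.1 FPKM with PA+NTP, and 10.2 and 9.96 FPKM with LA+NTP. All 4 NTP libraries were above the other 6. NTP raised it by a log2 fold change of 0.68 ± 0.14 under PA (edgeR adjusted p = 0.00113) and 0.76 ± 0.14 under LA (edgeR adjusted p = 0.000317), and without the GC trend by 0.47 and 0.49. Psmb9 overlaps Tap1 on the other strand, a gene whose own log2 fold change was 0.24 and 0.18 in these comparisons, without passing the test.

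Psmb10, the counterpart of Psmb7, was at 23.3 and 24.1 FPKM in Vehicle, 25.1 and 22.9 FPKM with PA, 18.0 and 16.3 FPKM with LA, 33.3 and 31.3 FPKM with PA+NTP, and 26.6 and 24.4 FPKM with LA+NTP. It fell with LA by 0.42 on the log2 scale (SE 0.09, edgeR adjusted p = 0.00144) and rose with NTP by 0.38 under PA and 0.53 under LA. The GC-corrected changes with LA and with NTP were -0.13, 0.10 and 0.16, none past the test. Psmb8, the counterpart of Psmb5, was at 30.9 and 25.9 FPKM in Vehicle and 46.2 and 34.2 FPKM with PA+NTP. It passed the test in none of the 4 comparisons (edgeR adjusted p from 0.106 to 0.348). With PA the GC-corrected changes of Psmb8 (0.43) and Psmb10 (0.30) passed the test as increases. Psmb11 likewise passed in none, at expected counts of 26.8 to 209 per library.

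The share of the 3 immunosubunits in the summed FPKM of Psmb5 to Psmb10 was 13.1% and 12.7% in the Vehicle libraries, 13.5% and 12.0% in PA, 11.4% and 10.8% in LA, 18.3% and 14.4% in PA+NTP, and 14.2% and 12.8% in LA+NTP. One LA+NTP library lay below one PA library, and no other NTP library lay below a library with an FFA alone. The mean of the 4 NTP libraries was 14.9% and that of the 4 libraries with an FFA alone 11.9% (exact two-sided permutation test, p = 0.0571, where the smallest p with n = 4 against 4 is 0.0286). This test exchanged libraries freely between PA and LA, although the share also differed between these FFAs. Within PA the difference was 3.63 percentage points and within LA 2.40 points, each 2 against 2 libraries, where the exact permutation test cannot go below p = 0.33. The pairs did not move alike. Psmb9 with Psmb6 and Psmb10 with Psmb7 had a higher immunosubunit share in each NTP library than in its FFA libraries. For Psmb8 with Psmb5 the share was 19.4% and 18.0% in LA and lower, 17.2% and 15.9%, in LA+NTP. It was 20.3% and 18.0% in PA and 24.7% and 17.4% in PA+NTP. All these shares were taken with the GC trend in place, and the part of that trend in them was not tested. After GC correction Psmb7 (48.7% GC), which is in the denominator, still fell with NTP, while the rise of Psmb10 (56.5% GC) no longer passed the test.

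The macrophage marker Cd68 was highest with PA+NTP and lowest with LA. The summed FPKM of 6 Kupffer cell and macrophage markers was 205 and 206 in the Vehicle libraries, 201 and 237 in PA, 124 and 128 in LA, 265 and 295 in PA+NTP, and 179 and 193 in LA+NTP. The summed FPKM of the immunoproteasome and thymoproteasome genes was 62.7 and 58.2, 68.5 and 59.6, 49.95 and 46.4, 92.9 and 77.4, and 67.5 and 63.6 in the same libraries. Nearly all of the marker sum was Cd68, at 122 to 287 FPKM, while the Kupffer cell marker Clec4f was at 0.03 to 0.29 FPKM, Adgre1 at 0.34 to 1.12 FPKM and Ptprc at 0.32 to 0.75 FPKM. The scarce markers did not all go 1 way. Csf1r, like Cd68, was highest with PA+NTP (0.79 and 0.96 FPKM), and was at 0.24 to 0.65 FPKM in the other libraries. Adgre1 was at 0.97 and 1.12 FPKM with PA+NTP, 1.00 and 0.52 FPKM with PA, and 0.34 to 0.56 FPKM in the others. Marco was at 2.9 to 4.59 FPKM in the PA and PA+NTP libraries and at 0.42 to 0.95 FPKM in the others. Clec4f was at 0.03 to 0.08 FPKM in the PA and PA+NTP libraries and at 0.13 FPKM or more in all others. Ptprc was highest with PA (0.70 and 0.75 FPKM). In bulk samples, fewer cells of a type and less RNA per cell cannot be told apart, and the part of such cells in the levels of Psmb8, Psmb9 and Psmb10 was not tested.

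**Figure D4:**
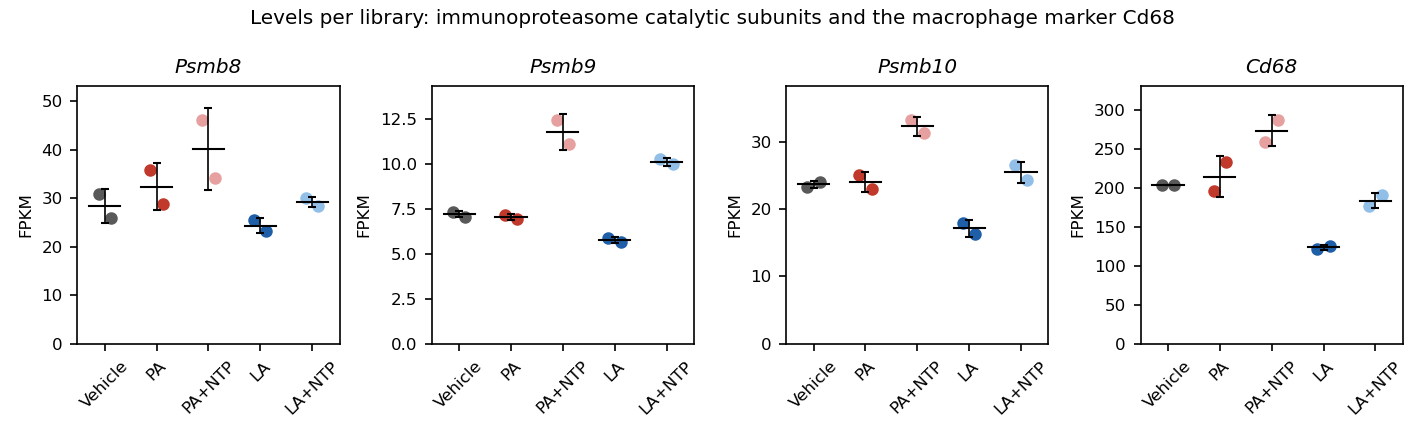
Level in FPKM (vertical axis, from 0) of Psmb8, Psmb9, Psmb10 and Cd68 in each of the 10 libraries (points, 2 per group), with the group mean (line) and SD (bars). For Psmb9 all 4 NTP libraries are above the other 6, and the LA libraries are the lowest for Psmb9, Psmb10 and Cd68.

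The assembly factors split. Psmg4, a small chaperone that pairs with Psmg3 in building the alpha ring, was at 21.2 and 24.2 FPKM in Vehicle, 14.8 and 14.04 FPKM with PA, 10.6 and 11.9 FPKM with LA, 27.8 and 32.8 FPKM with PA+NTP, and 26.4 and 23.5 FPKM with LA+NTP. The 4 libraries with an FFA alone were all below the other 6. The log2 fold changes were -0.65 ± 0.14 with PA (edgeR adjusted p = 0.00152), -0.99 ± 0.14 with LA (edgeR adjusted p = 7.7e-05), 1.03 ± 0.13 for PA+NTP against PA (edgeR adjusted p = 3.19e-05) and 1.07 ± 0.13 for LA+NTP against LA (edgeR adjusted p = 1.41e-05). Removing the GC trend left -0.45, -0.77, 0.82 and 0.79, all past the test. The changes with LA and with NTP were the largest of any member in those comparisons, with and without the GC trend. With PA, leaving out Vehicle replicate 2 gave -0.54 (edgeR adjusted p = 0.0283), under 1.5-fold.

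The partner Psmg3 was at -0.02 with PA and -0.35 with LA, without passing the test, and rose with LA+NTP against LA by 0.39. Psmg1 and Psmg2, which form the other chaperone pair of the alpha ring, rose with PA by 0.30 and 0.43, of which the GC-corrected values were 0.36, past the test, and 0.27, not past it. Of the chaperones of the base, Psmd5 rose with both FFAs (0.49 and 0.33) and Psmd10 with PA (0.52). The GC-corrected values with PA were 0.28 for Psmd5 and 0.21 for Psmd10, both past the test, while Psmd5 with LA was at 0.10 and Psmg3 with LA+NTP at 0.04, neither past it. Psmd9 passed in none of the 4 comparisons. Pomp, which guides the beta ring, was at 154 and 145 FPKM in Vehicle and 171 and 162 FPKM with PA, a log2 fold change of 0.19 ± 0.08 (edgeR adjusted p = 0.0779, GC-corrected 0.13), and passed in none of the 4 comparisons.

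Over the 5 groups, 18 of the 49 genes (36.7%) were higher in CPM in all 4 libraries with an FFA alone than in any of the other 6 libraries, where 20.1% of all genes tested were. The 18 were 7 of the alpha ring, 4 of the lid (Psmd6, Psmd12, Psmd13 and Psmd14), 3 ATPases (Psmc1, Psmc2 and Psmc6), Psme1, Psme4, Psmb7 and Psmd1. In the opposite direction 4 genes (8.16%), Psmb6, Psmd3, Psmd8 and Psmg4, were lower in those 4 libraries than in the other 6, where 19.1% of all genes were. The choice of this measure was made after the values were seen, and it has no test. It used CPM with the GC trend in place, and that trend split the libraries in the same way. A gene's deviation from its mean had a Spearman rho with GC content of -0.57 to -0.47 in the 4 libraries with an FFA alone. In the other 6 it was 0.34 to 0.57. Among the genes of both sets, Psma2, Psma4, Psmd1, Psme4, Psmb6, Psmd3 and Psmd8 passed with neither FFA against Vehicle after GC correction. Of all 8 alpha ring genes, 4 then passed with PA and 3 with LA, and Psma8 did not pass with LA.

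Set against Vehicle, the NTP groups showed few changes. With LA+NTP no member passed in either direction at any fold by edgeR, where 0.192% of all genes were higher and 0.0922% lower. At an unadjusted p under 0.05 there were 4 higher and 4 lower (background 14.3% in either direction), DESeq2 gave 0 higher and 1 lower, and limma on log2(FPKM + 1) gave none. With PA+NTP 4 members were higher than in Vehicle (background 4.5%), Psmb8, Psmb9, Psmb10 and Psmd10, and Psme4 was lower (background 5.61%). Psmb9 was the largest, at 0.68 ± 0.14 (edgeR adjusted p = 0.00633), and at an adjusted p of 0.0753 by edgeR without Vehicle replicate 2. The count of 4 rests on single libraries: it was 1 without either Vehicle library and 15 without PA+NTP replicate 1. Set directly against LA, PA had 12 members higher (background 5.59%) and none lower (background 5.54%). Asked whether NTP acted differently with PA than with LA, no member passed the test by edgeR, DESeq2 or limma. Of all 14097 genes 0 passed by edgeR, and at an unadjusted p under 0.05 there were 0 members higher and 4 lower, where 7.3% of all genes were past it in either direction.

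Genes that act with the proteasome were read from a list of 29 in the files. With PA 13 rose (background 23.5%) and 9 fell (background 22.0%), with a median log2 fold change of 0.13, and with LA 13 rose (background 20.8%) and 10 fell (background 20.5%), with a median of 0.04. After GC correction 5 rose and 6 fell with PA (background at this setting 15.2% and 15.5%). With LA 1 then rose and 6 fell (7.61% and 9.67%). Both deubiquitinating enzymes that bind the cap rose: Usp14 by 0.73 with PA and 0.55 with LA, and Uchl5 by 0.78 and 0.61. Adrm1, the receptor that anchors Uchl5, was at -0.41 and -0.59, and the ubiquitin gene Ubb (-0.24 and -0.30) fell with both FFAs, while Rps27a rose. GC-corrected, Usp14 (0.34), Uchl5 (0.38) and Rps27a (0.35) passed the test with PA and not with LA, and Adrm1 and Ubb passed with neither. The transcription factor genes known to drive proteasome expression had small changes. Nfe2l1 was at 0.08 with PA and -0.16 with LA, of which the second passed the test, and Nfe2l2 was at -0.15 and 0.08, of which neither did. GC-corrected, Nfe2l1 was at 0.23 and Nfe2l2 at -0.29 with PA, both past the test, and neither passed with LA.

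In the antigen presentation list of 14 genes, 5 rose (background 23.5%) and none fell (background 22.0%) with PA, and 2 rose (background 20.8%) and 2 fell (background 20.5%) with LA. With NTP 2 rose and 2 fell under each FFA, where 21.7% and 25.9% of all genes rose and 23.0% and 25.6% fell. After GC correction 9 rose and 1 fell with PA (background at this setting 15.2% and 15.5%). With LA 2 then rose and 1 fell (7.61% and 9.67%), near the background for so few genes. Against Vehicle 6 rose (background 4.5%) and none fell (background 5.61%) with PA+NTP, among them Tap1 (0.42) and Nlrc5 (0.47), the activator of MHC class I genes. These are genes known to be expressed with Psmb8, Psmb9 and Psmb10. Irf1 was at 0.22 in that comparison and did not pass the test.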

How the data were processed

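Bulk RNA-seq of 10 libraries of primary mouse hepatocytes was analysed, grouped by the sample labels. File names number the replicates otherwise than the labels do, and groups and replicate numbers follow the labels. According to the methods, the authors aligned reads with HISAT and Bowtie2 and quantified genes with RSEM, and the submitters' processing notes name the build mm10. No versions are stated there. The authors deposited, per library, the expected count of each gene (RSEM's estimate, not normalized between libraries) and its FPKM (scaled by the authors for length and depth). Genes below 0.01 FPKM in a library are absent from its table and were taken as 0 there.

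After rounding, the expected counts were fitted in edgeR 4.0.16 (R 4.3.3) with TMM normalization, filterByExpr (14097 of 18055 genes kept), 5 groups as one factor over all libraries, the quasi-likelihood F test, and Benjamini-Hochberg adjustment. A call needed an adjusted p under 0.05 and a fold of at least 1.5. The fit was tested on simulated counts. The common biological coefficient of variation was 0.0682. The authors' own test, NOISeq, was not used here.

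GC content, shared 31-base words and overlapping exons were taken from GENCODE M21 transcripts, and promoters from RefSeq on GRCm38, the build also called mm10. The GC trend was a loess curve (span 0.4) on each library's log counts. The exact permutation tests were two-sided. Protein sequences were not analysed here.

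The named genes were the members called in any of the 4 main comparisons, the standard and immunoproteasome catalytic pairs, Psme1, Psme2, Pomp and the members with the highest and lowest mean FPKM of each class, while others are named where a count or a role needed them, after their values were seen. The members and lists were chosen with earlier results of these data known. The direct contrast of PA with LA was added after the values were seen. DESeq2 1.42.0, limma 3.58.1, other scalings and filters, a block for the replicate number, GC and length trends removed, and each library left out in turn were the alternatives.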

Additional observations from a re-analysis of the deposited data

Results flagged for a closer look

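The response to PA and to LA differed for 12 members in the direct contrast of the PA and LA libraries (edgeR quasi-likelihood F test, adjusted p under 0.05 at any fold), where 5.59% of all genes tested were higher with PA and 5.54% lower. All 12 were higher with PA than with LA and none was lower, and at an unadjusted p under 0.05 there were 26 higher and 1 lower. DESeq2 gave 15 higher and 0 lower, and limma on log2(FPKM + 1) gave 12 higher and 0 lower. In log2 fold change of PA over LA, the catalytic and alpha ring genes were Psmb10 (0.46), Psmb5 (0.34), Psma6 (0.25) and Psma1 (0.22). The cap genes were Psmd14 (0.27), Psmd2 (0.26), Psmc4 (0.25), Psmc5 (0.24) and Psmd7 (0.24), and the others were Psmd10 (0.38), Psmg1 (0.31) and Psme2 (0.30). None reached 1.5-fold. Without 1 library the count of 12 fell to 3 (either PA library left out) or 4 (either LA library left out), and this contrast was added after the values were seen.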

How the results depend on the processing

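Replicate numbers gave no clear pairing: same-numbered libraries of 2 groups deviated together with a correlation of -0.07 to 0.13 over genes. The labels do not say whether such libraries share an animal or culture, and a low correlation cannot settle it. With the replicate block, 2 members in place of 1 were called lower with PA, 5 in place of 3 fell at any fold, and 8 in place of 4 were above Vehicle with PA+NTP. No other count of calls moved by over 1.5 times and no named change lost its call.

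Removing the GC trend moved the most values. The calls at 1.5-fold became 1 higher and 0 lower with PA, 0 higher with LA, and 1 higher and 1 lower for PA+NTP against PA, for LA+NTP against LA and for NTP over both FFAs, and with the block added these were the same except 1 lower with PA. At any fold, GC removal left 1 lower with PA, 9 higher and 2 lower with LA, 2 higher and 17 lower with PA+NTP, 5 higher and 13 lower with LA+NTP, 7 above Vehicle with PA+NTP and 6 higher with NTP over both FFAs. With the block added, the higher counts were 10, 3, 6, 10 and 8 in that order, and the lower counts were again 2, 17 and 13. The medians moved to 0.041 (0.0399 with the block) with LA, -0.11 with PA+NTP, -0.056 (-0.057 with the block) with LA+NTP and -0.10 over both FFAs, with or without the block. Changes of sign under GC removal, with or without the block, were those of Psme4 (-0.045) and Psmd3 (0.12) with PA; Psma2 (-0.13), Psmb5 (0.032) and Psma4 (-0.00172, or -0.00162 with the block) with LA; Psma4 (0.013) and Psmd10 (0.10) with PA+NTP; and Psma2 (0.0636, or 0.0634 with the block), Psma3 (0.0095, or 0.0094 with the block), Psmc3 (-0.047) and Psmd10 (0.24) with LA+NTP. The cause was not tested.

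With no fold threshold the counts were 27 higher and 3 lower for PA, 17 and 9 for LA, 7 and 26 for PA+NTP, 12 and 22 for LA+NTP, 4 and 1 for PA+NTP against Vehicle, 13 and 27 for NTP over both FFAs, and 12 higher for PA against LA. The genes called lower with PA numbered 2 with DESeq2, with no filter, with only the compared groups and without the length trend. Those lower with PA at any fold numbered 5 with DESeq2, library-size scaling, no filter, a mean FPKM of at least 1 and limma on log2(FPKM + 1), and 6 with only the compared groups. With LA 1 gene was called higher under library-size scaling and both limma fits. PA+NTP called 2 lower by limma on log2(FPKM + 1), and LA+NTP 5 lower without the length trend. At any fold, PA+NTP lay above Vehicle for 8 genes with DESeq2, 10 with library-size scaling, 12 with no filter and 7 with either limma fit, and LA+NTP lay below Vehicle for 1 gene with DESeq2 and with only the compared groups. Medians moved to 0.04 (library-size scaling) and 0.13 (length trend removed) with LA, to -0.14 with PA+NTP (library-size scaling and both limma fits), to -0.20 with LA+NTP (length trend removed), and over both FFAs to -0.12 (library-size scaling and both limma fits) and -0.24 (length trend removed). In CPM after TMM in place of FPKM the immunoproteasome share was 15.6% in Vehicle, 15.6% in PA, 19.6% in PA+NTP, 13.5% in LA and 16.2% in LA+NTP.

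Leaving out each library in turn gave 0 to 2 genes called lower and 2 to 5 lower at any fold with PA, 1 to 2 called higher and 1 to 2 called lower with LA, and 2 to 5 called lower in either NTP comparison. For PA+NTP against Vehicle it gave 0 to 2 called higher, 1 to 15 higher and 0 to 1 lower at any fold, with a median of 0.010 to 0.13. The median was -0.26 to -0.11 for PA+NTP against PA and -0.087 to 0.018 for the difference of the NTP effects, and PA against LA gave 3 to 16 higher. With 1 library left in a group, that library was assumed to vary like the others. Having 2 libraries a group, the smallest of 13142588 counts, limits what small changes can be told from the spread, and the thinly counted Psmb11 and Psma8 most of all.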

Other observations

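The genes outside the list whose profile over the 10 libraries was most like the mean standardised profile of the 49 members, in log2(FPKM + 1), were Igsf6 (Pearson r = 0.986, mean 0.629 FPKM), Ralb (0.985, 35.7 FPKM), Clec4d (0.984, 1.80 FPKM), Rbm12 (0.983, 14.04 FPKM) and Atic (0.978, 61.0 FPKM), as a description over libraries that share groups and a GC trend.

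Of the 6 hepatocyte markers, 5 fell with PA (background 22.0%) and 1 with LA (background 20.5%). Summed markers of sinusoidal endothelium lay between 15.6 and 21.9 FPKM, those of stellate cells between 3.45 and 6.36 FPKM, those of cholangiocytes, mostly Spp1, between 399 and 692 FPKM, and those of lymphocytes between 0 and 0.22 FPKM. None of the 4 neutrophil markers was listed in any library.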
